A study of Homo sapiens with 17 samples.

Results

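The genes described are 35 human protein-coding genes for cell junctions, keratins and epithelial gene control, out of 20037 protein-coding genes in the RefSeq table used. A binding region was assigned to a gene if it overlapped the RefSeq span of that gene extended by 25 kb on each side, and 1280 of the 266843 regions in 8 lists lay near these 35 genes by that rule. The genes were chosen by name and function, with earlier results of these data already known. They comprise 3 genes of cell adhesion, 9 of the tight junction, 6 of the desmosome, 5 of the hemidesmosome and its basement membrane, 6 keratins and 6 regulators of the epithelial state.

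Binding was measured by CUT&RUN, in which an antibody directs a nuclease to cut and release the DNA around the bound protein. The cells were Nthy-ORI, a single established line of human thyroid follicular cells immortalised with a viral T antigen. All groups were first starved of hormone for 24 hours in charcoal-stripped serum and then received 10 nM T3, the active thyroid hormone, or its NaOH vehicle. The sample labels give 6 hours of treatment, and the protocol text names a longer time as well. Antibodies were directed against TRβ, a thyroid hormone receptor, and against BRG1, ARID1A and PBRM1. There were 2 libraries for every antibody in either condition, making 8 groups, and the 1 IgG library was not analysed here. Nothing in the labels says that the 2 libraries came from separate cultures, so their agreement may be technical. The lists record binding and not expression, so the epithelial label was not checked against expression.

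Each group is represented by 1 list of regions found in both libraries, so conditions are described side by side and no test across replicates was possible. For TRβ the vehicle list had 1412 regions and the T3 list 7208, and the corresponding numbers were 64299 and 55938 for BRG1, 49021 and 41710 for ARID1A, and 9115 and 38140 for PBRM1. The lists do not give read depth, so how much of a difference in list length came from depth was not tested. A region was called shared if at least 1 bp of it overlapped a region of the other condition, and otherwise T3-only or vehicle-only. The authors' signal value of a region is the sum of 2 library values, given below in the order of the file. Which numbered replicate each value belongs to is not stated. KRT8, KRT18, KRT17 and OCLN have near-identical copies elsewhere in the genome, and how reads mapping to several places were treated is not given in the sources used here.

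Epithelial cells hold together through adherens junctions built on cadherins, tight junctions built on claudins and occludin, and desmosomes, and they hold to the basement membrane through hemidesmosomes. Keratin filaments anchor to desmosomes and hemidesmosomes. BRG1 is an ATPase of the SWI/SNF remodelling complexes, ARID1A is a subunit of the BAF form and PBRM1 of the PBAF form. TRβ binds DNA with or without hormone, and loss of epithelial junction genes is a known part of thyroid tumour progression.

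BRG1 was listed near every one of the 35 genes in both conditions, and TRβ near 4 of them with vehicle and 19 with T3. KRT7 and PLEC had the most regions over the 8 lists, 103 each, followed by KRT8 with 90, TJP1 with 89 and CLDN4 with 78. At the other end, GRHL2 and CLDN12 had 3 regions each, CLDN3 had 4, and ESRP1 and DSP had 10 each. Per 100 kb of window, CLDN4 led with 151 regions, followed by KRT7 with 142 and KRT18 with 96.2, and GRHL2 was lowest with 1.26. Window length ranged from 51.3 to 320 kb with a median of 86.4 kb, against a median of 74.1 kb for the 20002 other genes. Neighbouring members share regions: KRT8 and KRT18 lie side by side, as do CDH1 and CDH3.

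**Figure D1:**
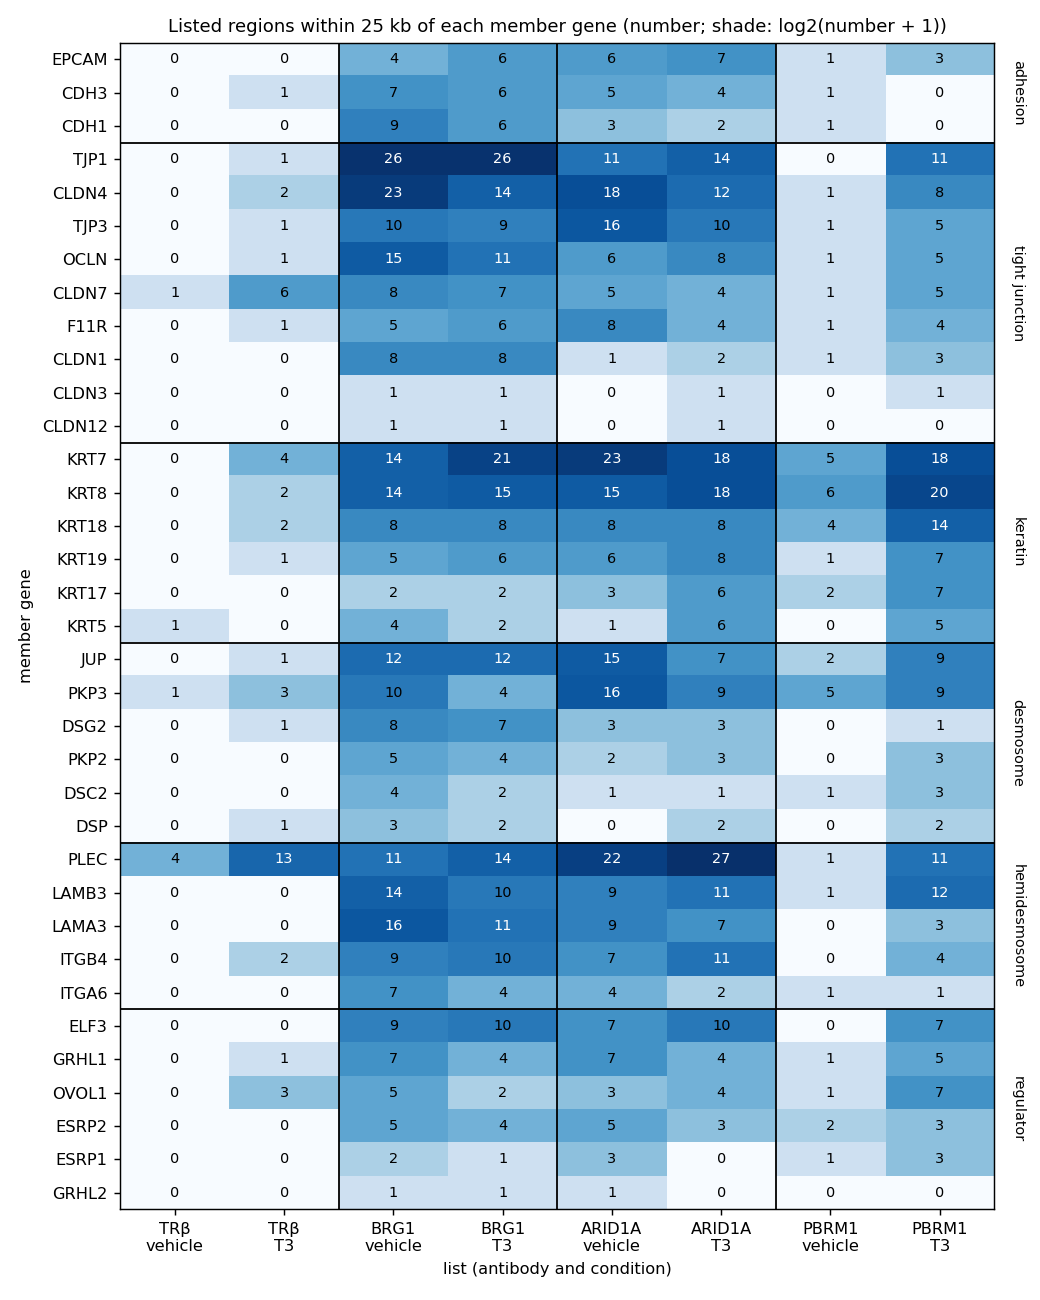
Number of listed regions within 25 kb of each of the 35 genes (rows, grouped by role) in each of the 8 lists (columns); the shade is log2(number + 1). BRG1 is above 0 in every row, whereas the TRβ vehicle column is 0 for all but CLDN7, KRT5, PKP3 and PLEC.

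The stretches of DNA at the starts of 6 members are shown first, because 2 of them lay under TRβ regions listed with T3 and the others under PBRM1 regions absent from the vehicle list. Start windows reach from 250 bases before to 50 bases after a RefSeq start (GRCh38.p14, which is hg38). A table of them covered 19 of the 35 members. Some of these starts lie well inside the gene span, among them those of KRT8 and LAMA3 and the one shown for TJP1. The windows are chr12:52926420-52926719 (minus strand) at KRT8, chr5:69492540-69492839 (plus) at OCLN, chr6:7541421-7541720 (plus) at DSP, chr3:190322397-190322696 (minus) at CLDN1, chr15:29821430-29821729 (minus) at TJP1 and chr7:73830746-73831045 (plus) at CLDN4. Capitals mark matches, on either strand, to any of the motifs searched: the receptor half-site AGGTCA, that half-site repeated directly with 4 bases between, the grainyhead core AACCGGTT, the E-box CACCTG, the AP-1 site TGACTCA or TGAGTCA, and the GC box GGGCGG. Longer capital runs are overlapping or adjoining matches.
KRT8: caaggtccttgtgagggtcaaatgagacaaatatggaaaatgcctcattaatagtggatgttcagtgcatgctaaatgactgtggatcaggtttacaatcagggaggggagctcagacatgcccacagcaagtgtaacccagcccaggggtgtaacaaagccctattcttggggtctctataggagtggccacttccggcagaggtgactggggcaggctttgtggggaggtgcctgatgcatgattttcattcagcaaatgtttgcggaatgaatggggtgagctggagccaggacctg
OCLN: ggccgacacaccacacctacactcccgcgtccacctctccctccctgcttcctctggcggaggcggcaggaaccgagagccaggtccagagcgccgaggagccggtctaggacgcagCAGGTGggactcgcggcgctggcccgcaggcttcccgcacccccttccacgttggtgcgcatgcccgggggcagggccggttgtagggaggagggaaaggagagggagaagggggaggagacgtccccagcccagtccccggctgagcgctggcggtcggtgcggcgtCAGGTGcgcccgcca
DSP: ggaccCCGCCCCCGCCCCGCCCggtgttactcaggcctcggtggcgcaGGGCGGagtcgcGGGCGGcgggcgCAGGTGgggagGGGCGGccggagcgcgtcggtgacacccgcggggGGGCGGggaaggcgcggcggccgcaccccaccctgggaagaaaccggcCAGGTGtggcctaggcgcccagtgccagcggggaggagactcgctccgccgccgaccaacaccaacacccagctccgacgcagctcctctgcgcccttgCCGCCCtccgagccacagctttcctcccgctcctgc
CLDN1: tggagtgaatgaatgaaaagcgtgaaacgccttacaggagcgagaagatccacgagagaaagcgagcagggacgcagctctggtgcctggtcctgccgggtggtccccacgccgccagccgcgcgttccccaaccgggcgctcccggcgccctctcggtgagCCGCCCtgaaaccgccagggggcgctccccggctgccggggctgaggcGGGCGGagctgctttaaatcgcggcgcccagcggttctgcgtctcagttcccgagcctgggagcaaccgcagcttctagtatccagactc
TJP1: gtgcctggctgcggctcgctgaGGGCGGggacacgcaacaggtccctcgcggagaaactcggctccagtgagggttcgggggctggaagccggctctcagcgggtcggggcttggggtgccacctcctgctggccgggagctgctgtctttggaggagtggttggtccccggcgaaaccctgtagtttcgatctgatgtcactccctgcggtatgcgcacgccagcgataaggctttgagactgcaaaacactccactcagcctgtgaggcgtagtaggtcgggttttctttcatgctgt
CLDN4: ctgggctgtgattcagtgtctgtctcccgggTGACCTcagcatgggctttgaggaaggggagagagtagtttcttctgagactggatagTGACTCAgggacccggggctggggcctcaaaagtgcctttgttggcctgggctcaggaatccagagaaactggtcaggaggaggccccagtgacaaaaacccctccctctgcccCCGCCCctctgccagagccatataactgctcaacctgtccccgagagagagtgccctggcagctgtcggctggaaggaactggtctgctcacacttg
The KRT8 window held none of these motifs, and the OCLN window held 2 E-boxes and nothing else. The CLDN4 window was the one of the 6 with a half-site and an AP-1 site.

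The KRT8 start used here lies inside the gene span (chr12:52897191-52949860) and not at its higher-coordinate end, where this minus-strand gene begins. At that internal start the TRβ T3 region chr12:52925644-52927482 had a signal value of 12.6, with library values of 6.70 and 5.92. Regions of BRG1, ARID1A and PBRM1 with T3 also covered that KRT8 start, at signal values of 37.0, 29.4 and 18.1. The same start had BRG1 and ARID1A regions with vehicle, at 45.7 and 33.4, and none for TRβ or PBRM1. At the start of OCLN, which encodes occludin, TRβ was listed with T3 at chr5:69492509-69493126 with a value of 9.69 (4.77 and 4.92), and the other 3 proteins were listed there in both conditions. At DSP, CLDN1, TJP1 and CLDN4, PBRM1 was listed with T3 and not with vehicle, at values of 27.1 (12.9 and 14.1), 20.3 (10.5 and 9.78), 20.2 (10.0 and 10.2) and 19.2 (7.77 and 11.4). The library values were close to each other at these starts, apart from CLDN4. BRG1 was listed in both conditions at all 4.

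Over the 19 members with a start in the table, BRG1 covered a start in 16 (84.2%) with vehicle and the same 16 with T3, against 62.9% and 58.1% of 15824 other genes. No member start had a T3-only BRG1 region, against 1.96% of the other genes. PBRM1 covered a start in 3 members with vehicle (ITGA6, JUP and OCLN) and in 14 (73.7%) with T3, against 20.8% and 58.0% of other genes. T3-only PBRM1 regions accounted for 11 members (57.9%, against 38.9%). ARID1A covered 10 member starts with vehicle (52.6%, against 46.5%) and 15 with T3 (78.9%, against 50.9%). Its T3-only regions lay over 7 starts, those of CLDN1, CLDN12, CLDN3, DSG2, DSP, KRT5 and TJP1 (36.8%, against 11%). TRβ covered 2 with T3, KRT8 at its internal start and OCLN (10.5%, against 16.3%), and 0 with vehicle (against 2.77%). The starts of CLDN7 and LAMA3 in the table were covered in none of the 8 lists, but that LAMA3 start lies inside the gene. At the lower-coordinate end of the span, where LAMA3 (plus strand) begins, lay the ARID1A T3 region chr18:23689304-23690351. It overlapped regions of ARID1A with vehicle, of BRG1 in both conditions and of PBRM1 with T3.

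**Figure D2:**
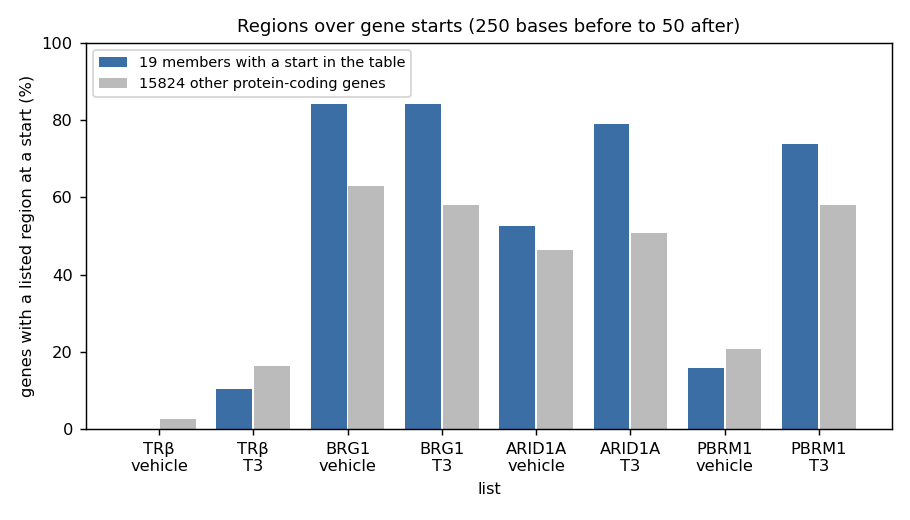
Percent of genes with a listed region over a start (y axis) in each list (x axis), for the 19 members in the start table and 15824 other protein-coding genes; there are no error bars. The member bar for PBRM1 goes from 15.8% with vehicle to 73.7% with T3, and the BRG1 bars are 84.2% in both.

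Among all start windows of these 19 members, the E-box CACCTG, a site used by the epithelial repressors of the SNAI and ZEB families and by many other factors, was found in 14 members (73.7%), against 24.8% of the 15843 genes in the table. Counted by window, 15 of 30 member windows and 20.0% of all 22183 windows held it. The half-site was in 4 members (CLDN4, CLDN7, DSC2 and TJP1; 21.1%, against 15.2%). The AP-1 site was in 3 (CLDN4, LAMA3 and LAMB3; 15.8%, against 5.26%) and the GC box in 15 (78.9%, against 64.3%). No member window held the direct repeat spaced by 4 bases (0.0126% of genes) or the grainyhead core (0.221%). A match describes letters in these windows and not binding.

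With vehicle, TRβ was listed near 4 members (11.4%, exact 95% interval 3.20 to 26.7), and 11.1% of other genes had such a region. With T3 it was listed near 19 (54.3%, 36.6 to 71.2), and 39.3% of other genes had one. All 19 also had a T3-only region, as did 37.7% of other genes. A vehicle-only region lay near 2 members, KRT5 and PLEC (5.71%, 0.70 to 19.2), against 6.81%. The intervals cover counting error over genes only, and genes with shared neighbours are not independent. Holding both TRβ lists to equal length left 7 members with a T3 region, a share 5.96 percentage points above that of other genes, and counting the gene span alone left 10 (28.6%, against 22.5% of other genes). Among genes with at least 1 other protein-coding gene in the window, 19 of 31 members (61.3%) and 43.5% of 16035 other genes had a TRβ T3 region. In windows with no such neighbour, 0 of 4 members and 890 of 3967 other genes (22.4%) had one.

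**Figure D3:**
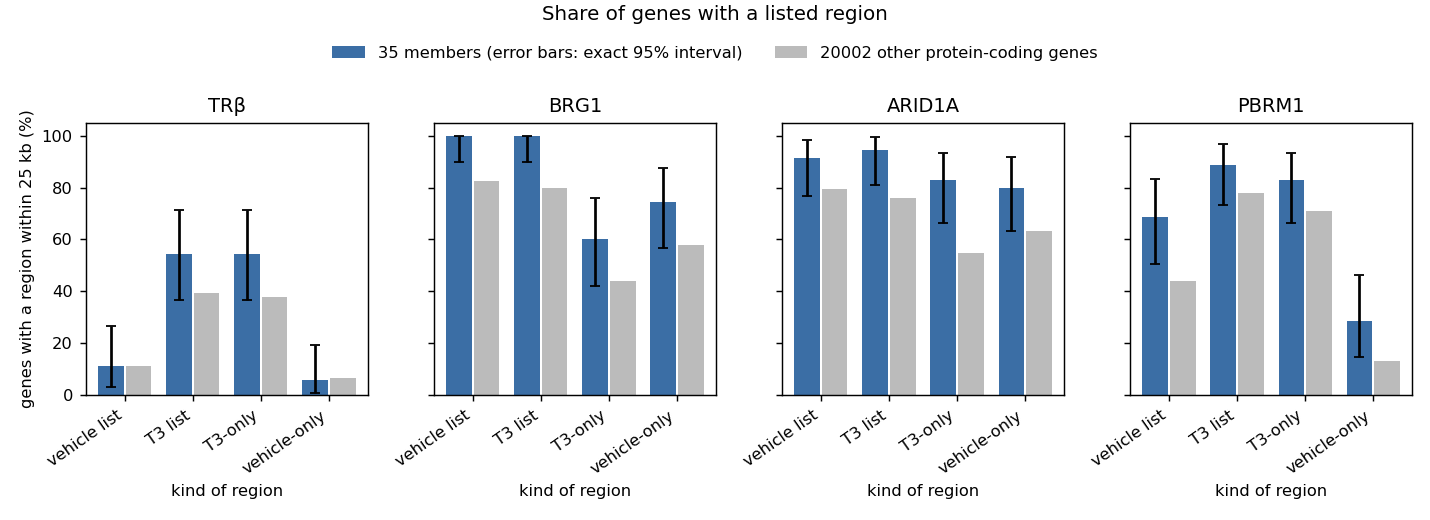
Percent of genes with a region within 25 kb (y axis), by kind of region (x axis) and protein (panels), for the 35 members (error bars: exact 95% binomial intervals) and 20002 other protein-coding genes. For ARID1A T3-only regions the members are at 82.9% and the others at 54.7%; for TRβ with vehicle the bars are level at 11.4% and 11.1%.

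The 45 TRβ T3 regions near members had signal values from 8.20 to 28.7 with a median of 10.9, against a median of 10.3 near other genes. Of these, 40 were T3-only (88.9%, 75.9 to 96.3), against 92.8% near other genes, and 97.8% were T3-only at a reciprocal overlap of 50%. The density of the 45 was 12.9 per Mb of window, against 3.76 around other genes. PLEC held 13 of the 45 (28.9%), and without PLEC the density was 9.47. Leaving out both PLEC and KRT7, a choice made after the tie between them was seen, gave 8.47. Of the 45 regions, 19 lay inside the span of a member, 17 in another gene alone and 9 in no gene. In 8 of the 45 the library values differed by at least 2-fold (17.8%, against 12.8% of the whole list).

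**Figure D4:**
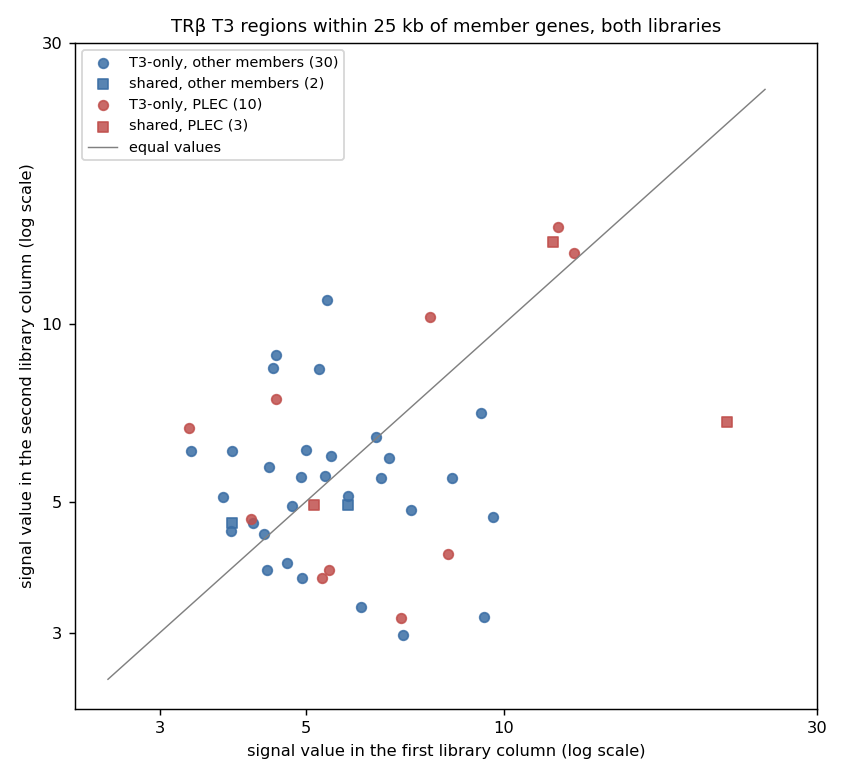
Signal values of the 45 TRβ T3 regions near members in the first (x axis, log scale) and second (y axis, log scale) library of the list; circles are T3-only and squares shared regions, and PLEC is in red. Of the PLEC regions, 3 lie above 10 in both libraries, and no region near another member does.

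Among the hemidesmosome genes, PLEC (chr8:143915153-143976745) stood apart. It encodes plectin, the linker that ties keratin filaments to hemidesmosomes. With vehicle its TRβ regions were 4, led by chr8:143937819-143941422 at 35.3 (library values 17.9 and 17.4), rank 14 of the 1412 in that list. With T3 there were 13, of which 10 were T3-only. The highest of the 13 was the shared region chr8:143938913-143943870 at 28.7, whose library values of 21.9 and 6.83 were far apart. The T3-only regions chr8:143948182-143950269 at 26.7 (12.1 and 14.6) and chr8:143933905-143936436 at 26.0 (12.8 and 13.2) had close library values. PLEC supplied all 4 member regions within the first 100 of the TRβ T3 list, and the highest value near any other member was 16.3. The vehicle-only TRβ region at PLEC, chr8:143929338-143929907, had 10.4 (5.29 and 5.10). The highest vehicle and T3 TRβ regions at PLEC both lay inside the T3-only PBRM1 region chr8:143936407-143947660. That PBRM1 region had a signal value of 87.5 (22.8 and 64.7), rank 3 of 38140, and its library values were 2-fold or more apart. Both TRβ regions also lay inside the shared ARID1A T3 region chr8:143932104-143945481 at 97.7 (36.7 and 61.0), rank 2 of 41710. BRG1 was listed at both with vehicle and with T3, and 13 of the 14 BRG1 T3 regions near PLEC were shared.

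**Figure D5:**
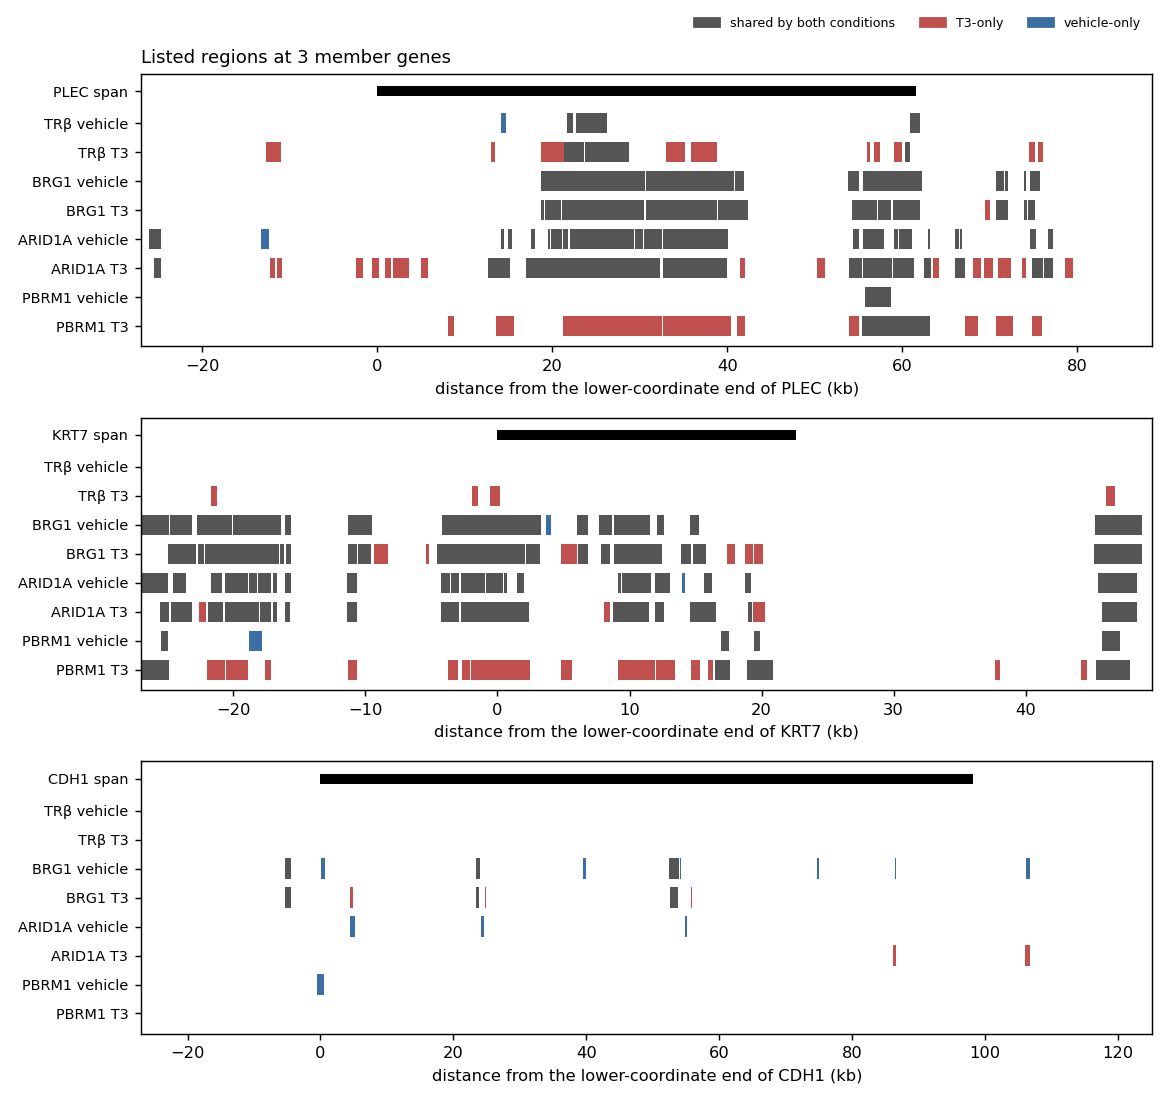
Listed regions (bars) along PLEC, KRT7 and CDH1 by list (y axis), against distance in kb from the lower-coordinate end of each gene (x axis); black is the gene span, grey shared, red T3-only and blue vehicle-only. PLEC and KRT7 carry 10 and 14 T3-only PBRM1 regions, and CDH1 carries 0.

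ITGB4, an integrin chain of the hemidesmosome, had 0 TRβ regions with vehicle and 2 with T3. The higher, chr17:75764480-75765552 at 16.3 (9.24 and 7.07), lay in the neighbouring gene GALK1. ARID1A near ITGB4 had 7 regions with vehicle and 11 with T3, 9 of them T3-only. The laminin chain genes LAMB3 and LAMA3 and the integrin gene ITGA6 had no TRβ region in either list. LAMB3 had 1 PBRM1 region with vehicle and 12 with T3, and all 12 were T3-only. LAMA3 had 16 BRG1 regions with vehicle and 11 with T3, and 0 and 3 PBRM1 regions. ITGA6 was the hemidesmosome member with the same PBRM1 count, 1, in both conditions, and its BRG1 regions numbered 7 and 4.

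Tight junction members with a TRβ T3 region were 6 of 9 (66.7%), against 39.3% of other genes, a comparison over few genes. CLDN7, a claudin, had 6, of which 5 were T3-only. All 6 lay in the neighbours PHF23, GABARAP and SLC2A4, between 16.9 and 23.5 kb from CLDN7. The highest, chr17:7280838-7282085 in SLC2A4, had 16.3 (5.39 and 11). CLDN4 had 2, and the higher, chr7:73850626-73851428 at 13.4 (4.51 and 8.88), lay 17.9 kb from the gene. TJP3, a zonula occludens scaffold gene, had 1 at chr19:3751346-3752194, inside APBA3, at 11.4 (5.47 and 5.97), and it overlapped no region of the other 3 proteins. Inside their own spans, F11R (junctional adhesion molecule A) had 1 at 10.9 (5.35 and 5.52), TJP1 (zonula occludens scaffold) 1 at 9.97 (3.86 and 6.10), and OCLN the region at its start. CLDN1, CLDN3 and CLDN12 had none. BRG1 was listed near CLDN1 at 8 regions in each condition, and near CLDN3 and CLDN12 at 1.

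TJP1 had 26 BRG1 regions in each condition, the highest count for BRG1 among the members, in the longest window (320 kb). With vehicle CLDN4 was next with 23, in a window of 51.7 kb. With T3 KRT7 was next with 21 and CLDN4 had 14. PBRM1 at TJP1 went from 0 regions with vehicle to 11 with T3. The T3-only ARID1A region of highest signal near any member lay over the start of CLDN3, chr7:73768706-73770992 at 24.0 (15.5 and 8.45). The next by signal lay inside TJP1, chr15:29948777-29949783 at 18.9 (12.5 and 6.43). Near CLDN7, the T3-only BRG1 region chr17:7240126-7241831 in GABARAP and PHF23 had 20.1 (10.2 and 9.92), the highest of the T3-only BRG1 regions near members. A vehicle-only BRG1 region, chr17:7236354-7237300 at 18.3 (13.8 and 4.48), lay a few kb away in PHF23.

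Keratin members carried 9 TRβ T3 regions, counted per gene, at KRT7, KRT8, KRT18 and KRT19. These were 4 of 6 keratins (66.7%), against 39.3% of other genes. That is a comparison over few genes, of which KRT8 and KRT18 share their regions. KRT7 (chr12:52233243-52255853), a keratin of simple epithelia, had 4, all T3-only. The highest, chr12:52232692-52233444 at 13.8 (8.34 and 5.49), reached over the lower-coordinate end of the KRT7 span. KRT8 and KRT18, partners in the simple epithelial filament, had the same 2 regions. The second of these lay over both spans, chr12:52949487-52950381 at 8.65 (4.94 and 3.71). KRT19 had 1, 19.6 kb away, at 8.73 (4.32 and 4.41). KRT17, a keratin of basal and stressed epithelium, had none in either list, and its ARID1A regions numbered 3 with vehicle and 6 with T3.

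KRT5, a basal keratin, was the one member with fewer TRβ regions with T3. Its vehicle-only region, chr12:52495008-52496128 at 12.6 (6.12 and 6.5), lay 18.4 kb outside KRT5 and 1.75 kb from KRT6A. BRG1 was listed at that region in both conditions, and ARID1A and PBRM1 with T3. PBRM1 counts were higher with T3, the longer list, at each of the 6 keratins, and at 69.4% of other genes. KRT8 had 6 with vehicle and 20 with T3, KRT7 5 and 18, and KRT18, which shares regions with KRT8, 4 and 14. KRT19 had 1 and 7, KRT17 2 and 7, and KRT5 0 and 5. At KRT7 the T3-only PBRM1 region chr12:52231272-52235706 had 48.0 (14.6 and 33.4), rank 68 of its list, and it covered the TRβ region at the end of the span. At KRT7, BRG1 had 14 regions with vehicle and 21 with T3, whereas ARID1A had 23 and 18.

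Desmosome members with a TRβ T3 region were 4 of 6 (66.7%), against 39.3% of other genes, again over few genes. PKP3, a plakophilin, had 3 with T3 and 1 with vehicle. The highest with T3, chr11:409997-410818 in the neighbour SIGIRR at 13.6 (5.24 and 8.40), was T3-only for TRβ and overlapped a vehicle-only PBRM1 region, chr11:409290-410424 at 15.8 (7.16 and 8.66). Neither BRG1 nor ARID1A was listed there. Another, inside PKP3, chr11:393686-394729 at 12.5, had library values of 9.35 and 3.19, and a T3-only PBRM1 region of 30.5 (9.42 and 21.1) covered it. DSP, desmoplakin, had 1 in SNRNP48 at 12.9 (4.45 and 8.42), 3.15 kb outside the gene. JUP, plakoglobin, had 1 at 12 (6.5 and 5.49). DSG2, a desmosomal cadherin, had 1 inside the gene at 8.20 (4.37 and 3.83), the lowest of the 45, with an irreproducible discovery rate (IDR) of 0.0486. PKP2, a plakophilin, and DSC2, a desmosomal cadherin, had none. PBRM1 was listed near PKP2 at 0 regions with vehicle and 3 with T3, and near DSC2 at 1 and 3. JUP had 12 BRG1 regions in each condition, 15 and 7 ARID1A regions, and 2 and 9 PBRM1 regions. PKP3 had fewer BRG1 (10 with vehicle and 4 with T3) and ARID1A regions (16 and 9) with T3, and more PBRM1 regions (5 and 9).

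CDH1 (chr16:68737292-68835537), E-cadherin, had no TRβ region in either list. It was also one of the 2 members, with its neighbour CDH3, that had fewer PBRM1 regions with T3. The region missing with T3 was the same for both, the vehicle-only region chr16:68736830-68737833 at 16.2 (8.66 and 7.55), which reached over the lower-coordinate end of CDH1. Its IDR was 0.0481, close to the list limit of 0.05, and the lower counts of both genes rest on this region. A vehicle-only BRG1 region overlapped this PBRM1 region. Over the CDH1 window BRG1 had 9 regions with vehicle, 6 of them vehicle-only, and 6 with T3. ARID1A had 3 with vehicle and 2 with T3, and none was shared. CDH3, P-cadherin, had 1 TRβ T3 region inside the gene, chr16:68707374-68708069 at 10.9 (5.80 and 5.11). EPCAM, an epithelial adhesion molecule, had none for TRβ, 6 BRG1 regions with T3 that were all shared, and 1 and 3 PBRM1 regions with vehicle and T3.

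Regulators with a TRβ T3 region were 2 of 6 (33.3%), against 39.3% of other genes. OVOL1, a zinc finger repressor of the mesenchymal state, had 3, all T3-only, with the highest in AP5B1 at chr11:65780168-65780904 at 14.4 (9.64 and 4.71). GRHL1, a grainyhead factor, had 1 at 9.37 (6.06 and 3.32), 10.6 kb outside the gene. PBRM1 T3-only regions of high signal lay beside ELF3, an ETS factor, at 27.9 (15.8 and 12.1), and within OVOL1 at 27.5 (14.2 and 13.3), and BRG1 was listed at the former but not at the latter. ELF3 had 0 PBRM1 regions with vehicle and 7 with T3. GRHL1 had the highest vehicle-only BRG1 region near any member, chr2:9941002-9942511 at 24.8 (14 and 10.9), where PBRM1 was listed in both conditions. That region lay 9.18 kb outside GRHL1 and 6.59 kb from TAF1B. GRHL1 also had a T3-only ARID1A region at 18.5 (9.79 and 8.73), 12.1 kb outside the gene. The splicing regulators ESRP1 and ESRP2 had no TRβ region. ESRP1 had 3 ARID1A regions with vehicle and 0 with T3, and ESRP2 had 5 and 3. Near ESRP2 all 3 PBRM1 regions with T3 were shared. GRHL2 had 1 BRG1 region in each condition and 1 ARID1A region with vehicle, none inside the gene, and no PBRM1 region.

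For BRG1, all 35 members had a region with vehicle and with T3 (100%, 90.0 to 100), and 82.7% and 79.7% of other genes did. The median was 8 regions a member with vehicle and 6 with T3, against 3 and 3 for other genes, and with windows of 5 kb, of 100 kb or of the gene span alone the T3 median was 3, 12 and 2. Vehicle-only BRG1 regions lay near 26 members (74.3%, 56.7 to 87.5, against 57.7%) and T3-only ones near 21 (60.0%, 42.1 to 76.1, against 44.2%). With T3 19 members had fewer BRG1 regions and 8 had more, and among other genes 42.3% had fewer and 19.8% more. Of 249 BRG1 T3 regions near members, 46 were T3-only (18.5%, 13.9 to 23.9), against 22.7% near other genes. With sharing defined as a reciprocal overlap of 50% the T3-only share was 46.6%.

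ARID1A was listed near 32 members with vehicle (91.4%, 76.9 to 98.2, against 79.5%) and 33 with T3 (94.3%, 80.8 to 99.3, against 76.0%). CLDN12, CLDN3 and DSP lacked a region with vehicle and had one with T3, and ESRP1 and GRHL2 did the reverse. T3-only ARID1A regions lay near 29 members (82.9%, 66.4 to 93.4, against 54.7%) and vehicle-only ones near 28 (80.0%, 63.1 to 91.6, against 63.1%). With T3 17 members had more ARID1A regions (48.6%, against 25.6% of other genes) and 15 had fewer (42.9%, against 40.9%). Vehicle-only regions made up 35.8% (29.8 to 42.3) of the 240 regions near members, against 49.6% near other genes. T3-only regions made up 40.4% (34.0 to 47.1) of 230, against 45.5%, and 64.8% at a reciprocal overlap of 50%. The vehicle-only ARID1A regions of highest signal lay in B4GALNT4 near PKP3 at 21.4 (13.6 and 7.81), in TJP3 at 14.6 (7.57 and 7.04) and near JUP at 14.1 (5.92 and 8.13).

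PBRM1 was listed near 24 members with vehicle (68.6%, 50.7 to 83.1, against 43.9%) and near 31 with T3 (88.6%, 73.3 to 96.8, against 78.0%). The 4 without one with T3 were CDH1, CDH3, CLDN12 and GRHL2. T3-only regions lay near 29 members (82.9%, 66.4 to 93.4, against 70.8%). Vehicle-only regions lay near 10 (28.6%, 14.6 to 46.3, against 13.3%): CDH1, CDH3, CLDN1, CLDN4, KRT18, KRT19, KRT7, KRT8, LAMB3 and PKP3. With T3 30 members had more PBRM1 regions (85.7%, against 69.4% of other genes), 3 had as many (CLDN12, GRHL2 and ITGA6) and 2 had fewer. T3-only regions made up 154 of the 187 T3 regions near members (82.4%, 76.1 to 87.5), against 78.2% near other genes. With both lists held to equal length the T3-only share near members was 67.3%.

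All 4 proteins had more regions per Mb of window near members than near other genes. With T3 the values were 12.9 against 3.76 for TRβ, 71.3 against 28.1 for BRG1, 65.9 against 21.2 for ARID1A and 53.6 against 20.2 for PBRM1. With vehicle they were 2.01 against 0.717, 81.4 against 32.2, 68.8 against 24.4 and 10.9 against 4.96. Median signal values with T3 near members and near other genes were 12.5 and 11.6 for BRG1, 12 and 11.4 for ARID1A, and 12.2 and 12.3 for PBRM1. Member windows held a median of 1 other protein-coding gene and other windows 2.

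Most TRβ T3 regions near members also carried the remodeller subunits. With T3, BRG1 overlapped 40 of the 45 (88.9%, 75.9 to 96.3), against 72.8% of 6297 TRβ T3 regions near other genes. ARID1A overlapped 38 (84.4%, 70.5 to 93.5, against 70.4%) and PBRM1 35 (77.8%, 62.9 to 88.8, against 67.0%). All 3 were listed together at 32 (71.1%, against 58.2%). None of the 3 was listed with T3 at 2 (4.44%, 0.543 to 15.1, against 20.1%), the regions in SIGIRR near PKP3 and in APBA3 near TJP3. With vehicle, BRG1 was listed at 39 of these same places (86.7%, against 75.1%), ARID1A at 31 (68.9%, against 68.8%) and PBRM1 at 8 (17.8%, 8.0 to 32.1, against 24.9%). PBRM1 was thus listed with T3 and not with vehicle at 28 (62.2%, 46.5 to 76.2), against 43.5% near other genes. These intervals treat the 45 regions as independent. However, 13 of them lay near PLEC, where wide ARID1A and PBRM1 regions can overlap more than 1 at a time. Shares without PLEC were not computed.

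A list of 56 related genes that are not members was counted in the same way. TRβ T3 regions lay near 20 (35.7%), against 39.3% of all genes outside the members. They included 4 of 9 desmosome genes, 3 of 8 adherens junction genes, 3 of 12 tight junction genes, 2 of 6 regulators, 2 of 5 repressors of the epithelial state, and 1 of 10 keratins. The one keratin was KRT80, which lies beside KRT7. BRG1 T3 regions lay near 49 of the 56 (87.5%, against 79.7%) and ARID1A T3 regions near 44 (78.6%, against 76.0%). PBRM1 was listed near 27 with vehicle and 41 with T3 (73.2%, against 78.0%). MARVELD3, DSC1 and DSG1 had no region in any list.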

How the data were processed

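The authors deposited 1 region list for each of 8 groups of 2 CUT&RUN libraries, in the layout of the irreproducible discovery rate (IDR) method. Tools named in the submitters' processing notes are Bowtie2, MACS2, Trim Galore and CASAVA 1.7, the build is hg38, and parameters are absent from them. The deposited signal value of a region is the sum of its 2 library values, and these describe regions within a list. They were not scaled between lists, so values of different lists given side by side do not measure a change in binding. The deposited score and the −log10 of the IDR gave the limit of the lists, an IDR of 0.05. The sources used here give neither read depth nor any use of the IgG library, and 16 columns of values per sample were not used.

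Regions on chromosomes 1 to 22, X and Y were compared by overlap of at least 1 bp, after finding 0 overlaps within any list. Members and 20002 other protein-coding genes were counted in the same way, from RefSeq spans (GRCh38.p14) plus 25 kb. Exons and introns were not told apart. Shares of members carry exact (Clopper-Pearson) 95% binomial intervals. With 1 list per group there was no test across conditions.

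The members, the lists and the related genes were chosen with earlier results of these data known. All members are accounted for, and the count for 1 list of related genes is not reported here. Library values are printed for the highest TRβ region near each member, vehicle-only TRβ regions, the 6 highest T3-only PBRM1 regions by member, and up to 3 T3-only and vehicle-only regions each of BRG1 and ARID1A. Other regions were named after their values were seen. Overlap counting was tested on simulated intervals, with 0 wrong calls. Python 3.11.15, pandas 2.3.3, numpy 2.4.6, scipy 1.17.1 and matplotlib 3.10.9 were used. Alternatives covered the IDR limit, overlap rule, window, list length, library interval, regions in all 8 lists, and leaving out PLEC and KRT7.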

Additional observations from a re-analysis of the deposited data

How the results depend on the processing

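The recomputation gave 96 values over 8 results and 12 settings. Of these, 84 stayed within the binomial interval of the reported share or within 1.5 times the reported count, and 12 moved. A reciprocal overlap of 50% raised the T3-only share near members from 88.9% to 97.8% (TRβ), 18.5% to 46.6% (BRG1), 40.4% to 64.8% (ARID1A) and 82.4% to 90.4% (PBRM1), since fewer overlaps then count as shared. An IDR of at most 0.01 gave 48.3% for ARID1A and 89.4% for PBRM1, and lists of equal length gave 67.3% for PBRM1; the cause was not tested. The number of members with a TRβ T3 region was 10 with the gene span alone and 7 with lists of equal length, where fewer regions are counted. The median number of BRG1 T3 regions per member was 3 with a window of 5 kb, 12 with 100 kb and 2 with the gene span alone. The difference in the share of genes with a TRβ T3 region, 15 percentage points higher in members, ranged from 5.96 to 17.4. Even 5.96, with lists of equal length, counted as staying within the binomial interval, which is wide for 35 genes. PLEC and KRT7 had equally many regions, so each was left out in turn, and leaving out both was added after the data were seen. That gave a TRβ T3 density of 8.47 per Mb. No paired analysis was possible because each group has 1 list that needs both libraries, so no replicate could be left out and there is no test to block; the interval of either library moved none of the 8 results. Read depth is not given by the lists, so what a region absent from a list means for occupancy was not tested.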

Other observations

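The 5 repressors of the epithelial state counted among the related genes (SNAI1, SNAI2, TWIST1, ZEB1 and ZEB2) switch off cadherin and junction genes in other settings. BRG1 was listed near all 5 in both conditions. SNAI1 had 0 TRβ regions with vehicle and 1 with T3, 11 and 14 BRG1 regions, 7 and 8 ARID1A regions, and 2 and 8 PBRM1 regions, of which 7 were T3-only. ZEB2 had 1 TRβ T3 region, which was T3-only, and 3 PBRM1 regions with vehicle and 6 with T3. ZEB1 went the other way for TRβ, with 1 vehicle-only region and 0 with T3. SNAI2 had 1 BRG1 region in each condition and none of the other 3 proteins. TRβ T3 regions thus lay near 2 of the 5, against 39.3% of other protein-coding genes.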
